A study of Homo sapiens with 12 samples.

Results

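The pathway of transforming growth factor β (TGF-β) and the bone morphogenetic proteins (BMPs) was followed through 47 genes, taken by symbol from a list of ligands, latency proteins, receptors, SMAD proteins, ID genes, antagonists and intracellular regulators. All 47 symbols were present among the 27685 genes of the deposited table, and 46 passed the filter on low counts. GREM1, a secreted BMP antagonist, was at 0 in every library, where 3 counts per library would have been 0.0487 to 0.0561 scaled counts (CPM). The cells were U251, an established human glioblastoma line, at passages 14 to 18 in every group. They stably carried either a short hairpin RNA against the long noncoding RNA INCA1 (shINCA1) or a control hairpin (shCTRL). Each line was treated with the cytokine interferon gamma (IFNγ) for 24 h or left untreated, which gave 4 groups of 3 samples: shINCA1 with IFNγ, shINCA1 untreated, shCTRL with IFNγ and shCTRL untreated. The question behind the series is whether loss of INCA1 alters how glioblastoma cells react to interferon.

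Ligands of this family are secreted dimers that bring together type I and type II receptor kinases at the cell surface. BMP receptors phosphorylate SMAD1, SMAD5 and SMAD9, whereas TGF-β and activin receptors phosphorylate SMAD2 and SMAD3, and both sets enter the nucleus with SMAD4. Secreted antagonists such as noggin and follistatin bind the ligands, and TGF-β itself is stored in the matrix in a latent complex until it is released. In glioblastoma, TGF-β is known for its part in invasion and immune suppression, and BMPs for pushing stem-like tumour cells towards an astrocytic state.

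Libraries held 46525032 to 66242859 estimated counts and 16724 to 17216 genes above 0, and no library stood apart from its group (correlations of log2(CPM + 0.5) between replicates were 0.995 to 0.996). The first principal component, with 63.5% of the variance, separated the lines. The labels do not say that the 3 samples of a group were separate cultures, so the p-values measure a spread that may be technical. The labels name a single line for each hairpin, so the effect of the hairpin and a difference between lines cannot be told apart. The hairpin's target was not analysed here, because the table's entry named INCA1 is a different, protein-coding gene. The interferon-induced genes IRF1, CXCL10 and GBP1, which checked the treatment, rose with IFNγ in both lines. With IFNγ all of them were lower in shINCA1 than in shCTRL cells, IRF1 by 0.58 ± 0.05 (adjusted p = 9.59e-07), GBP1 by 2.77 ± 0.09 (adjusted p = 3.10e-10) and CXCL10 by 5.32 ± 0.13 (adjusted p = 6.13e-10) on the log2 scale. Of the 4 genes on the check list, 3 were already lower in untreated shINCA1 cells, 2 at least 2-fold (29.5% of all genes were lowered). The median log2 response of the 4 was 8.32 in shINCA1 and 6.40 in shCTRL cells, but the median of their gene-by-gene differences was -0.10. In the test of the difference of responses 1 of the 4 passed, with the larger rise in shINCA1 cells. The part of these interferon-gene levels in the differences between the lines was not tested. Of 8 glial markers, VIM, NES, SOX2, SOX9 and CD44 were well expressed. The astrocyte marker GFAP was at 0.157 to 0.653 CPM in shINCA1 and 0.714 to 1.76 CPM in shCTRL libraries. The glial markers did not move together: in each condition 3 of the 8 were raised and 5 lowered in shINCA1 cells, as given further on. CPM here are counts scaled to a common library size and not to gene length. Levels are therefore compared within a gene, or for markers as the sum over a fixed list of genes. All adjusted p-values are from edgeR's quasi-likelihood test, Benjamini-Hochberg adjusted across all 15769 genes tested, and a gene is said to have risen or fallen at an adjusted p under 0.05. Changes and differences written with ± are on the log2 scale with their standard error, as shINCA1 minus shCTRL or IFNγ minus untreated, from 3 samples a group.

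In shINCA1 cells the ligand genes BMP4 and BMP7 and the BMP antagonist genes NOG and SOSTDC1 were all about an order of magnitude higher than in shCTRL cells, with and without IFNγ. Lower in shINCA1 cells were the receptor gene BMPR1B, the ligand gene TGFB3, the pseudoreceptor gene BAMBI and the ID genes ID1, ID3 and ID4. Of the 46 members tested, 15 rose and 15 fell in untreated shINCA1 cells, 8 and 3 of them at least 2-fold. Of all 15769 genes, 1015 rose and 961 fell at least 2-fold. Called members were 65.2% of those tested, against 56.9% of all genes (27.4% raised and 29.5% lowered). With IFNγ 14 rose and 16 fell, again 65.2%, against 58.9% of all genes (28.7% raised and 30.2% lowered). At least 2-fold were 7 and 1 of these, against 1097 and 973 of all genes. The median log2 difference of the members was -0.08 in both conditions, and that of all tested genes -0.01 untreated and -0.00 with IFNγ. The libraries of the lines did not overlap for 34 members untreated and 37 with IFNγ, 73.9% and 80.4%, against 62.8% and 66.5% of all genes. The members' shares called at any size were near those of the whole table, so those counts say little about the pathway as such. The share raised at least 2-fold was above that of the whole table in both conditions. That was not tested, and the members were chosen with earlier results of these data known.

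**Figure D1:**
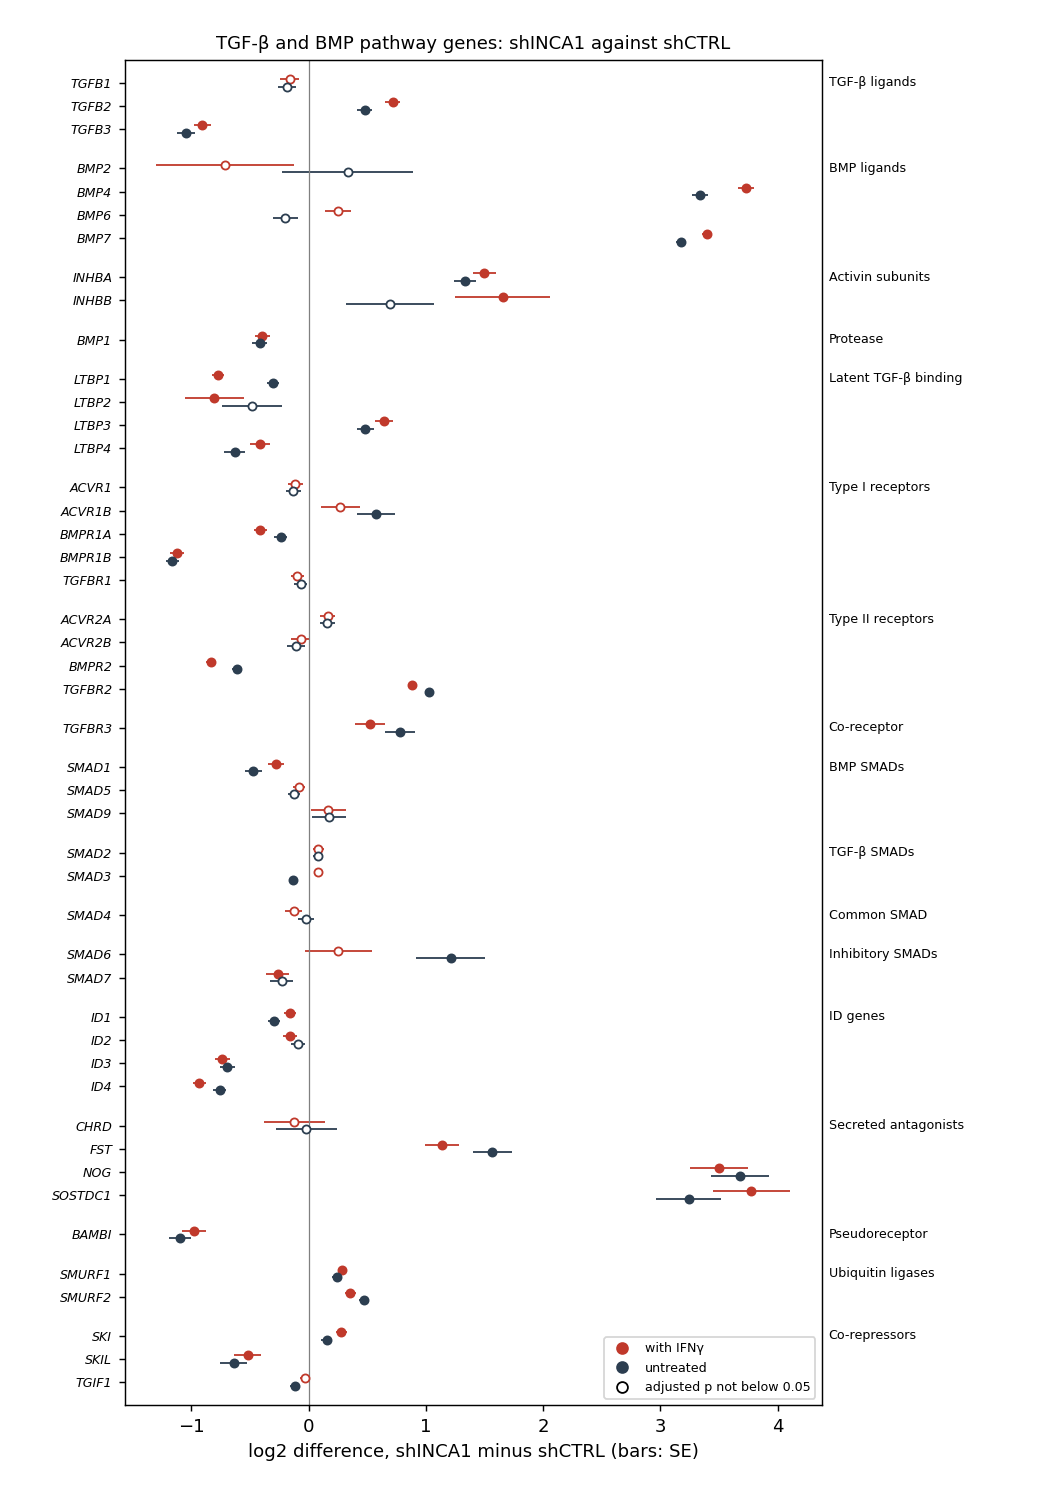
Log2 difference between shINCA1 and shCTRL cells for the 46 tested pathway genes, ordered by role, with IFNγ (red) and untreated (dark blue), as shINCA1 minus shCTRL. Bars are standard errors and open points missed an adjusted p of 0.05. BMP4, BMP7, NOG and SOSTDC1 lie between 3.18 and 3.78, and no other member exceeds 1.65.

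IFNγ changed fewer members. In both lines it raised FST, which encodes the activin and BMP antagonist follistatin, and TGIF1, a co-repressor of SMAD2 and SMAD3. It lowered INHBA, ID1, ID2, SOSTDC1 and BAMBI in both lines. In shINCA1 cells 2 of 46 members rose and 6 fell, 17.4% of those tested against 9.08% of all genes (6.13% raised and 2.95% lowered). In shCTRL cells 6 rose and 12 fell, 39.1% against 17.2% of all genes (9.72% raised and 7.51% lowered). The members' median log2 change was -0.03 in shINCA1 and -0.00 in shCTRL cells, and the median of all genes was 0.00 and -0.01. Treated and untreated libraries did not overlap for 16 members in shINCA1 and 23 in shCTRL cells, 34.8% and 50%, against 24.9% and 33.4% of all genes. None of the 46 members was called in opposite directions in the lines, and 27 were called in neither. The same counts were not made over all genes. A test of the difference between the lines' responses is given further on.

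**Figure D2:**
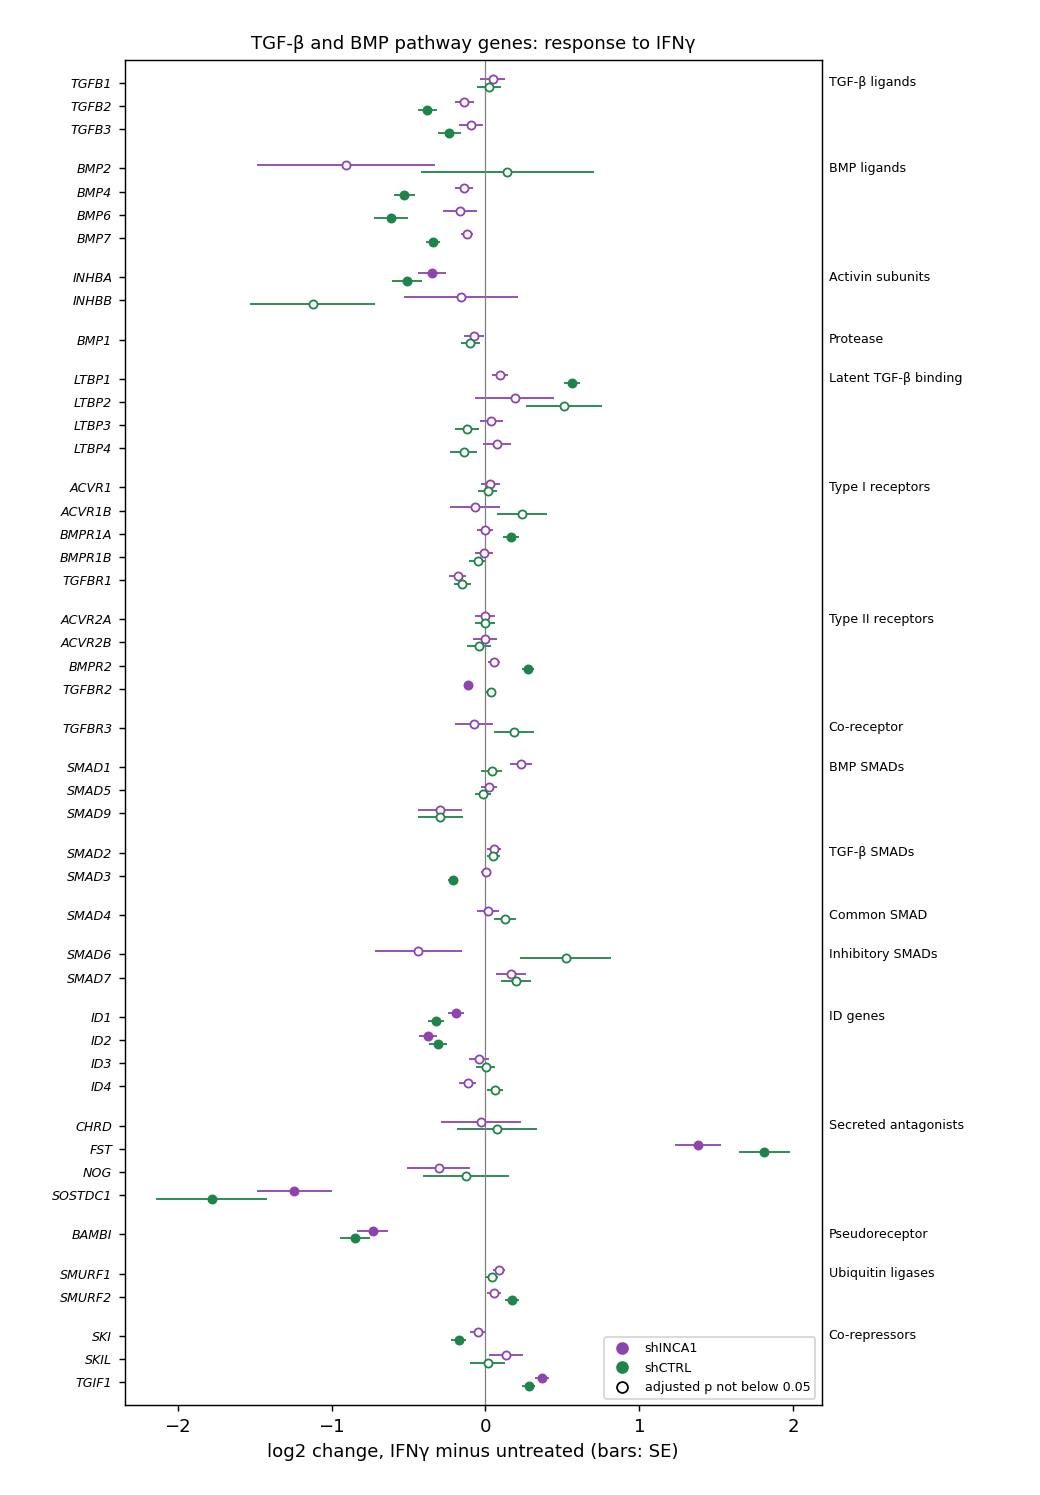
Log2 change with IFNγ for the same 46 genes in shINCA1 (purple) and shCTRL cells (green), as IFNγ minus untreated. Bars are standard errors and open points missed an adjusted p of 0.05. FST lies at 1.38 and 1.81 and SOSTDC1 at -1.24 and -1.78, while most genes lie within 0.5 of zero.

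Sequence before the transcription start is shown for 4 genes on which these results turn: LTBP1, whose response to IFNγ differed between the lines, FST and BAMBI, which IFNγ moved in opposite directions in both lines, and BMP4, which differed most between the lines among the ligands. Each is the 250 bases before a RefSeq start in GRCh38.p14, on the gene's own strand. They are chr2:33134119-33134368 (+) for the second of 3 LTBP1 starts, chr10:28677271-28677520 (+) for BAMBI, chr5:53480379-53480628 (+) for FST and chr14:53955051-53955300 (-) for the first of 3 BMP4 starts. The counts were made on another build, hg19, so these coordinates belong to the reference alone.
LTBP1: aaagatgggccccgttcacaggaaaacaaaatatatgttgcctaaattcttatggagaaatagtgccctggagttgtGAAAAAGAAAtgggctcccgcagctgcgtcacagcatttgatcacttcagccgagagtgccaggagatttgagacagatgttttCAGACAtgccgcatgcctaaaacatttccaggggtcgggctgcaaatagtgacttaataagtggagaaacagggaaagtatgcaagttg
BAMBI: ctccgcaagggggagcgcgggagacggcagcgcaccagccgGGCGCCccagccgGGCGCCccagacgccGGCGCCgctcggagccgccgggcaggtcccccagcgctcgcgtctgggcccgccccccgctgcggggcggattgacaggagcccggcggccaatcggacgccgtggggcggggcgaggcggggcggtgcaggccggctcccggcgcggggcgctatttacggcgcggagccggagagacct
FST: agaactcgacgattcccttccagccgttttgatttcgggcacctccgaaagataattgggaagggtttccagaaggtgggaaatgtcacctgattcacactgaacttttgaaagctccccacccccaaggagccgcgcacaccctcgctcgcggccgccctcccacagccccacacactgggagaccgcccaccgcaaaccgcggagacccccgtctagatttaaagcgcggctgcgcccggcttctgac
BMP4: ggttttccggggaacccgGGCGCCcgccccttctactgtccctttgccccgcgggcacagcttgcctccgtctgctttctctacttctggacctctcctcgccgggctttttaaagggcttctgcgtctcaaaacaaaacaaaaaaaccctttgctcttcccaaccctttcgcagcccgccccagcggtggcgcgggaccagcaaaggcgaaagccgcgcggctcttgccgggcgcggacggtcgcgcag
Capitals mark matches, on either strand, to TTCNNNGAA (the gamma-activated site), GAAA, any 2 bases and GAAA (a core of the interferon-stimulated response element), GGCGCC (bound by BMP SMADs) or CAGACA (bound by SMAD3 and SMAD4). No 2 matches in these windows overlapped. The LTBP1 window held GAAAAAGAAA from 173 to 164 bases before the start and CAGACA from 89 to 84 bases before it. It was the only window of these genes with the interferon-stimulated core and was picked with that known: the first LTBP1 window held none of the 4 motifs and the third held CAGACA alone. The BAMBI window, with 81.2% G and C, held GGCGCC 3 times, beginning 209, 196 and 181 bases before the start, and the BMP4 window held it once, beginning at 232. The second BMP4 window held none of the 4 and the third held CAGACA. The FST window held none of the 4. Windows were found for 41 of the 47 genes, 79 in all. The core of the interferon-stimulated response element was in 1 of the 79 (1.27%), against 3.02% of all 35114 windows, and TTCNNNGAA in 3 (3.80%), against 6.57%. GGCGCC was in 18 (22.8%), against 16.4%, and CAGACA in 16 (20.25%), against 13.6%. These are letter matches, not binding sites.

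Among the BMP ligand genes, BMP4 was at 67.2, 67.7 and 67.5 CPM in IFNγ-treated and 76.5, 72.1 and 74.3 CPM in untreated shINCA1 libraries. It was at 4.44, 5.27 and 5.53 CPM in IFNγ-treated and 7.44, 7.60 and 7.01 CPM in untreated shCTRL libraries. Every shINCA1 library was far above every shCTRL library, and within each line the treated libraries were below the untreated ones. BMP4 was 10.1-fold higher in shINCA1 than in shCTRL cells untreated, a log2 difference of 3.34 ± 0.07 (adjusted p = 9.19e-12), and 13.3-fold higher with IFNγ (3.73 ± 0.07, adjusted p = 4.47e-12). IFNγ lowered it by 0.53 ± 0.07 (adjusted p = 1.66e-04) in shCTRL cells. Its change in shINCA1 cells was -0.14 ± 0.06 (adjusted p = 0.211). This change passed with DESeq2's test, limma-voom and a fit on the shINCA1 groups alone (adjusted p down to 0.0201). It also passed without treated shCTRL library 1 (adjusted p = 0.0429). BMP7, like BMP4 a ligand of BMPR1A and BMPR1B, was at 107, 108 and 102 CPM in IFNγ-treated and 117, 113 and 116 CPM in untreated shINCA1 libraries. It was at 10.6, 9.58 and 10.003 CPM in IFNγ-treated and 12.7, 12.4 and 13.1 CPM in untreated shCTRL libraries. The lines did not overlap, with a 9.05-fold higher level in untreated shINCA1 cells (3.18 ± 0.04, adjusted p = 9.63e-13) and a 10.5-fold higher one with IFNγ (3.40 ± 0.04, adjusted p = 5.74e-13). BMP7 also fell with IFNγ in shCTRL cells, by 0.34 ± 0.04 (adjusted p = 1.38e-04), and changed by -0.12 ± 0.04 (adjusted p = 0.0848) in shINCA1 cells. The latter passed with DESeq2 size factors, upper-quartile factors, a 5 CPM filter, DESeq2's test and limma-voom (adjusted p down to 0.00917). All treated shINCA1 libraries lay below the untreated ones.

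With all libraries, BMP6 and BMP2 were called between the lines in neither condition. BMP6 was at 15.7, 11.4 and 15.8 CPM in IFNγ-treated and 15.3, 16.2 and 16.6 CPM in untreated shINCA1 libraries. It was at 12.97, 11.4 and 11.7 CPM in IFNγ-treated and 18.03, 19.7 and 17.5 CPM in untreated shCTRL libraries. The untreated shCTRL libraries were the highest group, and 1 treated shINCA1 library, at 11.4 CPM, lay below its replicates. IFNγ lowered BMP6 by 0.62 ± 0.11 (adjusted p = 0.00208) in shCTRL cells, and no other comparison of it was called. Without that low library the line difference of BMP6 passed in both conditions with opposite signs, at 0.39 (adjusted p = 0.0013) with IFNγ and -0.21 (adjusted p = 0.0253) untreated. The difference of the responses then passed too, at 0.60 (adjusted p = 0.0198). BMP6 overlaps TXNDC5 and its read-through gene, and with the strand setting of the counting not given, some reads may be theirs. BMP2 was barely detected, at 0.0926 to 0.378 CPM over the 12 libraries, and was called in no comparison.

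The activin subunit gene INHBA was at 11.4, 12.5 and 10.1 CPM in IFNγ-treated and 13.7, 15.7 and 13.9 CPM in untreated shINCA1 libraries. It was at 4.01, 4.11 and 3.95 CPM in IFNγ-treated and 5.45, 5.37 and 6.37 CPM in untreated shCTRL libraries. The groups did not overlap in any of the pairs compared. INHBA was 2.52-fold higher in shINCA1 cells untreated (1.33 ± 0.10, adjusted p = 1.92e-07) and 2.82-fold higher with IFNγ (1.50 ± 0.10, adjusted p = 8.50e-08). IFNγ lowered it by 0.35 ± 0.09 (adjusted p = 0.0360) in shINCA1 and by 0.51 ± 0.10 (adjusted p = 0.00341) in shCTRL cells. The shINCA1 call was lost without any 1 of the 3 treated shCTRL or 3 untreated shINCA1 libraries, or treated shINCA1 library 1 or 3 (adjusted p up to 0.132). INHBB, the other activin subunit gene, was at 0.125 to 0.856 CPM over the libraries and was higher in shINCA1 cells with IFNγ (1.65 ± 0.40, adjusted p = 0.00380). Its untreated difference was 0.69 ± 0.38 (adjusted p = 0.141).

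The 3 TGF-β ligand genes went separate ways between the lines. TGFB3 was at 10.4, 11.2 and 12.1 CPM in IFNγ-treated and 12.3, 11.04 and 12.5 CPM in untreated shINCA1 libraries. It was at 21.1, 21.2 and 20.7 CPM in IFNγ-treated and 24.1, 26.9 and 23.2 CPM in untreated shCTRL libraries. All shINCA1 libraries were below all shCTRL libraries, 2.07-fold untreated (-1.05 ± 0.08, adjusted p = 2.03e-07) and 1.87-fold with IFNγ (-0.91 ± 0.08, adjusted p = 7.48e-07). In shCTRL cells TGFB3 changed by -0.24 ± 0.07 (adjusted p = 0.0491) with IFNγ, a call lost without untreated shCTRL library 1 or 2, any treated shCTRL library or treated shINCA1 library 2 (adjusted p up to 0.135). TGFB2 was at 51.2, 51.1 and 51.1 CPM in IFNγ-treated and 58.1, 55.95 and 54.6 CPM in untreated shINCA1 libraries. It was at 32.02, 31.1 and 30.2 CPM in IFNγ-treated and 42.6, 43.1 and 35.6 CPM in untreated shCTRL libraries. It was higher in shINCA1 cells, 1.39-fold untreated (0.48 ± 0.06, adjusted p = 3.84e-05) and 1.64-fold with IFNγ (0.72 ± 0.06, adjusted p = 1.18e-06), and no library of one line reached the other under the same treatment. IFNγ lowered TGFB2 by 0.38 ± 0.06 (adjusted p = 0.00121) in shCTRL cells, and its change in shINCA1 cells was -0.14 ± 0.06 (adjusted p = 0.252). The latter passed without untreated shCTRL library 3 (adjusted p = 0.0395), and treated shINCA1 libraries lay below untreated ones. The overlapping entries TGFB2-AS1 and TGFB2-OT1 may share reads of TGFB2. TGFB1 was at 114, 121 and 106 CPM in IFNγ-treated and 121, 96.9 and 112 CPM in untreated shINCA1 libraries. It was at 122, 129 and 129 CPM in IFNγ-treated and 136, 122 and 116 CPM in untreated shCTRL libraries. These groups lay close together, with a log2 difference between lines of -0.18 ± 0.08 (adjusted p = 0.0689) untreated and -0.16 ± 0.08 (adjusted p = 0.105) with IFNγ. No comparison of TGFB1 was called, though every treated shINCA1 library lay below every treated shCTRL library. The treated difference passed with DESeq2's test, a fit on the treated groups alone and without untreated shINCA1 library 2 (adjusted p down to 0.0256). The untreated one passed with DESeq2's test and without untreated shCTRL library 3 or untreated shINCA1 library 1 (adjusted p down to 0.0161).

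**Figure D3:**
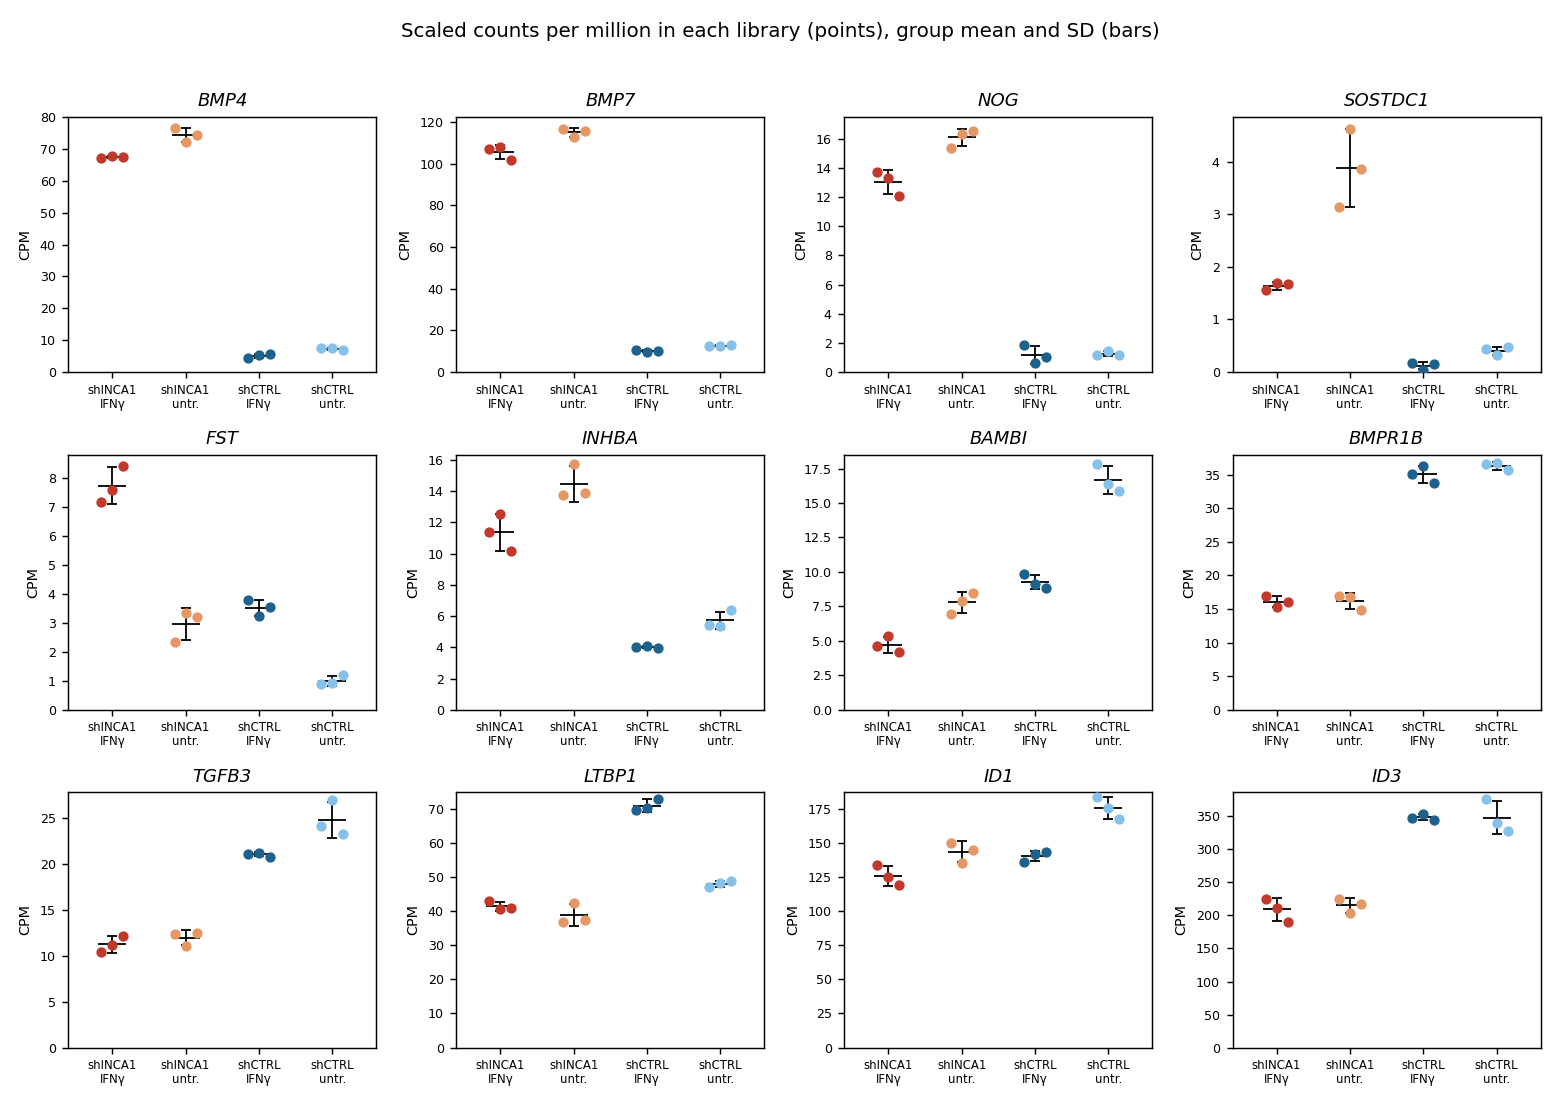
Scaled counts (CPM) of 12 pathway genes in each library (points), with the group mean and SD (bars), in the order shINCA1 with IFNγ, shINCA1 untreated, shCTRL with IFNγ and shCTRL untreated. For BMP4, BMP7, NOG and SOSTDC1 every shINCA1 library is above every shCTRL library, and LTBP1 at 69.5 to 72.9 CPM in treated shCTRL libraries stands above its other 3 groups.

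Latency and processing genes followed. LTBP1, which binds latent TGF-β to the matrix, was at 42.96, 40.5 and 40.9 CPM in IFNγ-treated and 36.7, 42.5 and 37.4 CPM in untreated shINCA1 libraries. It was at 69.5, 70.3 and 72.9 CPM in IFNγ-treated and 47.2, 48.1 and 48.9 CPM in untreated shCTRL libraries. The treated shCTRL libraries stood above all others, while treated and untreated shINCA1 libraries overlapped. IFNγ raised LTBP1 by 0.56 ± 0.05 (adjusted p = 8.66e-06) in shCTRL cells, 1.48-fold, and its change in shINCA1 cells was 0.09 ± 0.05 (adjusted p = 0.384). Without untreated shINCA1 library 2, the highest of its group, the groups of that line no longer overlapped and the change was 0.16 (adjusted p = 0.0358). It was lower in shINCA1 than in shCTRL cells by 0.31 ± 0.05 (adjusted p = 3.21e-04) untreated and by 0.77 ± 0.05 (adjusted p = 1.17e-07) with IFNγ. LTBP4 and BMP1, a protease that also cleaves procollagen, were lower in shINCA1 cells in both conditions, LTBP4 by 0.63 ± 0.09 (adjusted p = 6.74e-05) and BMP1 by 0.42 ± 0.06 (adjusted p = 1.37e-04) untreated. LTBP3 was higher in both, by 0.48 ± 0.08 (adjusted p = 1.67e-04) untreated. LTBP2 was lower with IFNγ (-0.80 ± 0.25, adjusted p = 0.0161), while its untreated difference was -0.48 ± 0.25 (adjusted p = 0.128), among untreated libraries that ran from 1.35 to 3.91 CPM.

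The receptor genes BMPR1B, BMPR2 and BMPR1A were lower in shINCA1 cells. They are not the only receptors open to BMPs, and ACVR1, ACVR2A and ACVR2B did not pass between the lines. Their untreated differences were -0.13 ± 0.06, 0.16 ± 0.07 and -0.11 ± 0.08. BMPR1B, a type I BMP receptor gene, was at 16.9, 15.3 and 16.1 CPM in IFNγ-treated and 16.9, 16.8 and 14.9 CPM in untreated shINCA1 libraries. It was at 35.1, 36.2 and 33.8 CPM in IFNγ-treated and 36.5, 36.7 and 35.6 CPM in untreated shCTRL libraries. The lines were apart by a clear gap in both conditions and the treatment made no called difference. BMPR1B was 2.24-fold lower in shINCA1 cells untreated (-1.16 ± 0.06, adjusted p = 8.44e-09) and 2.18-fold lower with IFNγ (-1.12 ± 0.06, adjusted p = 1.12e-08). BMPR2, a type II BMP receptor gene, was at 41.7, 41.7 and 40.3 CPM in IFNγ-treated and 38.8, 38.99 and 41.1 CPM in untreated shINCA1 libraries. It was at 73.1, 75.9 and 71.9 CPM in IFNγ-treated and 59.05, 60.4 and 62.7 CPM in untreated shCTRL libraries. All shINCA1 libraries were again below all shCTRL libraries, by 0.61 ± 0.04 (adjusted p = 5.31e-08) untreated and by 0.84 ± 0.04 (adjusted p = 3.76e-09) with IFNγ on the log2 scale. IFNγ raised BMPR2 in shCTRL cells by 0.28 ± 0.04 (adjusted p = 2.27e-04), and its change in shINCA1 cells was 0.06 ± 0.04 (adjusted p = 0.495). BMPR1A, another type I BMP receptor gene, was also lower in shINCA1 cells, by 0.24 ± 0.05 (adjusted p = 0.00198) untreated and by 0.41 ± 0.05 (adjusted p = 2.97e-05) with IFNγ. Its small change with IFNγ in shCTRL cells (0.17 ± 0.05, adjusted p = 0.0482) was lost without untreated shCTRL library 1 or 2, treated shCTRL library 1 or 2, untreated shINCA1 library 1 or 3, or any treated shINCA1 library (adjusted p up to 0.239).

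The TGF-β receptor genes TGFBR2 and TGFBR3 went the other way. TGFBR2, the type II receptor gene, was at 128, 123 and 129.7 CPM in IFNγ-treated and 137, 136 and 139 CPM in untreated shINCA1 libraries. It was at 68.1, 69.2 and 69.8 CPM in IFNγ-treated and 65.8, 67.6 and 69.02 CPM in untreated shCTRL libraries. It was 2.03-fold higher in untreated shINCA1 cells (1.02 ± 0.03, adjusted p = 1.06e-10) and 1.84-fold higher with IFNγ (0.88 ± 0.03, adjusted p = 3.88e-10), with no overlap. In shINCA1 cells it fell by 0.11 ± 0.03 (adjusted p = 0.0340) with IFNγ, which did not pass without any 1 untreated shINCA1 library or treated shINCA1 library 1 or 2 (adjusted p up to 0.120). The co-receptor gene TGFBR3 (betaglycan) was higher in shINCA1 cells by 0.78 ± 0.13 (adjusted p = 2.17e-04) untreated and 0.52 ± 0.13 (adjusted p = 0.00354) with IFNγ. TGFBR1, the type I partner of TGFBR2, was at 23.2, 21.5 and 22.998 CPM in IFNγ-treated and 24.4, 26.99 and 25.3 CPM in untreated shINCA1 libraries. It was at 24.96, 24.03 and 23.4 CPM in IFNγ-treated and 25.2, 27.6 and 27.6 CPM in untreated shCTRL libraries. It was called in no comparison, though treated libraries lay below untreated ones in both lines. The activin receptor gene ACVR1B was higher in untreated shINCA1 cells (0.58 ± 0.16, adjusted p = 0.00973), and ACVR1, ACVR2A and ACVR2B were called in no comparison.

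Of the SMAD genes, SMAD3, which carries TGF-β and activin signals, was at 95.9, 97.1 and 97.8 CPM in IFNγ-treated and 93.2, 96.5 and 101 CPM in untreated shINCA1 libraries. It was at 93.03, 92.97 and 89.9 CPM in IFNγ-treated and 108, 104 and 107 CPM in untreated shCTRL libraries. Its untreated shCTRL libraries were the highest, and those of the other 3 groups were close to each other. IFNγ lowered SMAD3 by 0.21 ± 0.03 (adjusted p = 6.19e-04) in shCTRL cells, against 0.00 ± 0.03 (adjusted p = 0.996) in shINCA1 cells. In untreated cells SMAD3 was lower in shINCA1 by 0.14 ± 0.03 (adjusted p = 0.00319). SMAD1, a BMP SMAD, was lower in shINCA1 cells by 0.47 ± 0.07 (adjusted p = 9.19e-05) untreated and by 0.28 ± 0.07 (adjusted p = 0.00384) with IFNγ. SMAD5, SMAD9, SMAD2 and SMAD4 were called in no comparison. SMAD6 and SMAD7 encode inhibitory SMADs and are themselves induced by the pathway. SMAD6 was at 6.87, 6.18 and 9.63 CPM in IFNγ-treated and 7.66, 11.4 and 11.6 CPM in untreated shINCA1 libraries. It was at 3.55, 7.43 and 7.96 CPM in IFNγ-treated and 5.19, 3.31 and 4.71 CPM in untreated shCTRL libraries. The untreated lines did not overlap (1.21 ± 0.29, adjusted p = 0.00365), whereas the treated lines did (0.25 ± 0.29, adjusted p = 0.478). SMAD7 was at 9.17, 9.97 and 8.18 CPM in IFNγ-treated and 7.84, 8.80 and 7.71 CPM in untreated shINCA1 libraries. It was at 10.1, 10.4 and 12.2 CPM in IFNγ-treated and 8.75, 9.76 and 10.1 CPM in untreated shCTRL libraries. It was lower in treated shINCA1 cells (-0.26 ± 0.10, adjusted p = 0.0368), a call lost without treated shCTRL library 3 or treated shINCA1 library 1 or 3 (adjusted p up to 0.161).

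The ID genes encode helix-loop-helix proteins without a DNA-binding domain and are direct targets of BMP SMADs. All 4 were lower in shINCA1 cells with IFNγ, where 30.2% of all genes were lowered, and 3 of 4 untreated, where 29.5% were. Such a small group gives no result of its own from these counts. ID3 was at 225, 211 and 190.5 CPM in IFNγ-treated and 225, 203 and 217 CPM in untreated shINCA1 libraries. It was at 347, 353 and 344 CPM in IFNγ-treated and 377, 339.5 and 328 CPM in untreated shCTRL libraries. The lines did not overlap and the treatment made no called difference. ID3 was 1.62-fold lower in untreated shINCA1 cells (-0.69 ± 0.06, adjusted p = 1.84e-06) and 1.67-fold lower with IFNγ (-0.74 ± 0.06, adjusted p = 1.05e-06). ID4 was at 15.4, 17.1 and 16.2 CPM in IFNγ-treated and 17.7, 17.5 and 17.5 CPM in untreated shINCA1 libraries. It was at 28.7, 32.1 and 32.2 CPM in IFNγ-treated and 29.5, 29.3 and 30.3 CPM in untreated shCTRL libraries. It too was lower in every shINCA1 library, by 0.76 ± 0.05 (adjusted p = 2.07e-07) untreated and by 0.93 ± 0.05 (adjusted p = 3.48e-08) with IFNγ. ID1 was at 134, 125 and 119 CPM in IFNγ-treated and 150.1, 135 and 145 CPM in untreated shINCA1 libraries. It was at 136, 142 and 143 CPM in IFNγ-treated and 184, 176 and 168 CPM in untreated shCTRL libraries. Untreated shCTRL libraries were above every other library of ID1. Its difference between lines was -0.29 ± 0.05 (adjusted p = 4.03e-04) untreated and -0.16 ± 0.05 (adjusted p = 0.0187) with IFNγ, and it fell with IFNγ by 0.19 ± 0.05 (adjusted p = 0.0392) in shINCA1 and by 0.32 ± 0.05 (adjusted p = 8.41e-04) in shCTRL cells. Of these ID1 calls, the line difference with IFNγ was lost without treated shCTRL or shINCA1 library 2 or 3 (adjusted p up to 0.0610). The response in shINCA1 cells was lost without treated shCTRL library 3, untreated shINCA1 library 1 or 3, or treated shINCA1 library 2 or 3 (adjusted p up to 0.113). ID2 was at 33.2, 32.97 and 33.3 CPM in IFNγ-treated and 39.3, 44.7 and 44.98 CPM in untreated shINCA1 libraries. It was at 38.7, 38.3 and 34.2 CPM in IFNγ-treated and 45.5, 45.3 and 46.8 CPM in untreated shCTRL libraries. Treated libraries were below untreated ones in both lines, with a fall of 0.38 ± 0.06 (adjusted p = 0.00109) in shINCA1 and of 0.31 ± 0.06 (adjusted p = 0.00277) in shCTRL cells. ID2 differed between the lines with IFNγ by -0.16 ± 0.06 (adjusted p = 0.0323), a call lost without untreated shCTRL library 2, treated shCTRL library 1 or 2, or any treated shINCA1 library (adjusted p up to 0.135). IFNγ lowered ID1 and ID2 in both lines, and ID3 and ID4 passed in neither.

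Secreted antagonists held the largest differences besides BMP4 and BMP7. NOG, which encodes the BMP antagonist noggin, was at 13.7, 13.3 and 12.1 CPM in IFNγ-treated and 15.4, 16.3 and 16.6 CPM in untreated shINCA1 libraries. It was at 1.87, 0.643 and 1.03 CPM in IFNγ-treated and 1.14, 1.44 and 1.20 CPM in untreated shCTRL libraries. The lines were separated by a wide gap in both conditions. NOG was 12.7-fold higher in untreated shINCA1 cells (3.68 ± 0.25, adjusted p = 1.14e-07) and 11.04-fold higher with IFNγ (3.50 ± 0.25, adjusted p = 1.76e-07). SOSTDC1, a BMP and WNT antagonist gene, was at 1.55, 1.69 and 1.67 CPM in IFNγ-treated and 3.13, 4.62 and 3.86 CPM in untreated shINCA1 libraries. It was at 0.166, 0.0470 and 0.150 CPM in IFNγ-treated and 0.431, 0.318 and 0.468 CPM in untreated shCTRL libraries. No 2 of the groups compared overlapped. SOSTDC1 was 9.55-fold higher in untreated shINCA1 cells (3.24 ± 0.28, adjusted p = 9.87e-07) and 13.5-fold higher with IFNγ (3.78 ± 0.33, adjusted p = 1.06e-06). IFNγ lowered it by 1.24 ± 0.25 (adjusted p = 0.00654) in shINCA1 and by 1.78 ± 0.36 (adjusted p = 0.00464) in shCTRL cells. The fall in shCTRL cells rested on 0.0470 to 0.468 CPM and was lost with limma-voom and with a fit on the shCTRL groups alone (adjusted p up to 0.0642).

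FST was at 7.18, 7.59 and 8.43 CPM in IFNγ-treated and 2.33, 3.34 and 3.20 CPM in untreated shINCA1 libraries. It was at 3.78, 3.24 and 3.54 CPM in IFNγ-treated and 0.878, 0.912 and 1.20 CPM in untreated shCTRL libraries. Treated libraries were above untreated ones in each line, and shINCA1 above shCTRL libraries under each treatment. IFNγ raised FST 2.61-fold in shINCA1 cells (1.38 ± 0.15, adjusted p = 5.46e-05) and 3.53-fold in shCTRL cells (1.81 ± 0.17, adjusted p = 7.44e-06), the only rise of at least 2-fold among the members in either line. The line difference was 1.57 ± 0.17 (adjusted p = 6.12e-06) untreated and 1.14 ± 0.15 (adjusted p = 3.25e-05) with IFNγ. CHRD, the gene of the BMP antagonist chordin, was at 2.14 to 4.01 CPM over the libraries and was called in no comparison. BAMBI, a receptor-like protein without a kinase domain whose gene is a pathway target, was at 4.60, 5.32 and 4.18 CPM in IFNγ-treated and 6.98, 7.91 and 8.49 CPM in untreated shINCA1 libraries. It was at 9.84, 9.14 and 8.82 CPM in IFNγ-treated and 17.8, 16.4 and 15.8 CPM in untreated shCTRL libraries. The 4 groups did not overlap, with treated shINCA1 libraries the lowest and untreated shCTRL libraries the highest. BAMBI fell with IFNγ by 0.73 ± 0.10 (adjusted p = 4.36e-04) in shINCA1 and by 0.85 ± 0.10 (adjusted p = 5.05e-05) in shCTRL cells, and was lower in shINCA1 cells by 1.10 ± 0.10 (adjusted p = 1.23e-06) untreated and by 0.98 ± 0.10 (adjusted p = 4.51e-06) with IFNγ.

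Intracellular regulators moved by small amounts. SMURF1 and SMURF2, ubiquitin ligases that mark receptors and SMADs for degradation, were higher in shINCA1 cells, by 0.24 ± 0.04 and 0.47 ± 0.04 untreated (adjusted p = 2.28e-04 and 2.41e-06). SMURF2 also rose with IFNγ in shCTRL cells (0.17 ± 0.05, adjusted p = 0.0207), a call lost without untreated shCTRL library 1 or 2 or treated shCTRL library 2 or 3 (adjusted p up to 0.109). SKI and SKIL encode related co-repressors of SMAD-driven transcription. SKIL, which the pathway induces as feedback, was at 28.8, 28.1 and 31.3 CPM in IFNγ-treated and 30.97, 27.5 and 22.1 CPM in untreated shINCA1 libraries. It was at 37.6, 43.5 and 45.5 CPM in IFNγ-treated and 38.95, 41.3 and 45.2 CPM in untreated shCTRL libraries. It was lower in all shINCA1 libraries, by 0.64 ± 0.11 (adjusted p = 3.73e-04) untreated and by 0.52 ± 0.11 (adjusted p = 0.00160) with IFNγ. SKI was higher in shINCA1 cells by 0.15 ± 0.05 (adjusted p = 0.0135) untreated, a call lost without untreated shCTRL library 3 or untreated shINCA1 library 1 or 3 (adjusted p up to 0.0620), and by 0.28 ± 0.05 (adjusted p = 2.61e-04) with IFNγ. SKI fell by 0.18 ± 0.05 (adjusted p = 0.0219) with IFNγ in shCTRL cells, a call lost without treated shCTRL library 1 (adjusted p = 0.0523). TGIF1 was at 36.3, 33.1 and 36.2 CPM in IFNγ-treated and 27.5, 27.3 and 27.1 CPM in untreated shINCA1 libraries. It was at 35.8, 37.3 and 34.8 CPM in IFNγ-treated and 29.8, 29.8 and 29.2 CPM in untreated shCTRL libraries. Treated libraries were above untreated ones in both lines, and untreated shINCA1 libraries were slightly below untreated shCTRL libraries. IFNγ raised TGIF1 by 0.37 ± 0.04 (adjusted p = 1.50e-04) in shINCA1 and by 0.28 ± 0.04 (adjusted p = 7.71e-04) in shCTRL cells. Its untreated line difference (-0.12 ± 0.04, adjusted p = 0.0408) was lost without any 1 untreated library or treated shINCA1 library 3 (adjusted p up to 0.105).

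Whether the lines responded differently to IFNγ was tested directly, as the response in shINCA1 minus that in shCTRL cells. Of 46 members 1 was raised and 1 lowered, 4.35% against 1.71% of all genes (0.615% raised and 1.10% lowered). LTBP1 had a difference of -0.47 ± 0.07 (adjusted p = 0.00714), and kept its call under every alternative tried. SMAD3 had a difference of 0.21 ± 0.05 (adjusted p = 0.0408), which no longer passed without any 1 of 11 of the 12 libraries (all but untreated shINCA1 library 3; adjusted p up to 0.159). BMP4 stood just outside the threshold (0.39 ± 0.09, adjusted p = 0.0603) and BMPR2 next to it (-0.22 ± 0.05, adjusted p = 0.0705). BMP4 passed with upper-quartile factors, a filter of 5 CPM and DESeq2's test (adjusted p down to 0.00531), and without treated shCTRL library 1 or 3 (0.0385 and 0.0380). BMPR2 passed with DESeq2 size factors, the filter of 5 CPM and DESeq2's test (adjusted p down to 0.0109). The differences of the genes that IFNγ moved most were -0.43 ± 0.22 (adjusted p = 0.508) for FST, 0.54 ± 0.43 (adjusted p = 0.732) for SOSTDC1 and 0.12 ± 0.14 (adjusted p = 0.844) for BAMBI. These did not pass, which does not show that the responses were equal. The members' median difference was 0.02, against 0.01 for all genes. The responses share no libraries with each other, whereas each line comparison shares its libraries with the responses.

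Of the 46 members, 11 were called in none of the 5 comparisons: TGFB1, BMP2, TGFBR1, ACVR1, ACVR2A, ACVR2B, SMAD5, SMAD9, SMAD2, SMAD4 and CHRD. Among them are the genes of the common SMAD and of the type I TGF-β receptor. Their log2 differences between lines ran from -0.18 to 0.33 untreated and from -0.71 to 0.17 with IFNγ. BMP2, with the fewest counts of them, was at 0.33 and -0.71. Of the 11, TGFB1, TGFBR1, ACVR2A, SMAD2, SMAD5 and SMAD9 passed under at least 1 alternative setting or with 1 library left out, so 6 of them were close to the threshold in some fit. ACVR2A, ACVR2B and SMAD5 each overlap another tested gene (ORC4, ACVR2B-AS1 and SMAD5-AS1). How many of all genes were called in none was not counted, so the number 11 is not read as a result about the pathway.

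Other genes of the pathway, 75 by a list and 57 of them tested, were looked at for comparison. In shINCA1 against shCTRL cells 15 rose and 23 fell untreated, and 19 rose and 23 fell with IFNγ, 66.7% and 73.7% called, against 56.9% and 58.9% of all genes. The medians were -0.04 untreated and -0.10 with IFNγ. IFNγ raised 3 and lowered 4 in shINCA1 cells (12.3% called, against 9.08% of all genes) and raised 6 and lowered 7 in shCTRL cells (22.8%, against 17.2%), with medians of 0.01 in shINCA1 and -0.01 in shCTRL cells. With genes at 0 in 1 group set to their bound, the shINCA1 median was 0.02. A wide gap was seen in CHRDL1, the gene of a chordin-like BMP antagonist, at 0.0871, 0.285 and 0.167 CPM in treated and 0.383, 0.183 and 0.0890 CPM in untreated shINCA1 libraries. It was at 43.8, 40.9 and 40.5 CPM in IFNγ-treated and 42.8, 44.96 and 44.5 CPM in untreated shCTRL libraries. CHRDL1 was nearly absent from shINCA1 cells, 202-fold lower untreated (-7.69 ± 0.25, adjusted p = 2.27e-10) and 232-fold lower with IFNγ (-7.88 ± 0.26, adjusted p = 3.00e-10).

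BMPER, a secreted modulator of BMPs, was at 1.95, 2.49 and 2.15 CPM in IFNγ-treated and 0.435, 0.632 and 0.490 CPM in untreated shINCA1 libraries. It was at 5.13, 5.64 and 4.79 CPM in IFNγ-treated and 1.42, 0.955 and 1.22 CPM in untreated shCTRL libraries. It rose 4.23-fold in shINCA1 cells (2.07 ± 0.19, adjusted p = 1.41e-05) and 4.32-fold in shCTRL cells (2.10 ± 0.18, adjusted p = 3.40e-06), and was lower in shINCA1 cells under both treatments (-1.21 ± 0.20 untreated, adjusted p = 2.09e-04). CRIM1, a membrane protein that binds BMPs, also rose with IFNγ in both lines, by 0.17 ± 0.03 (adjusted p = 0.00383) in shINCA1 and 0.41 ± 0.03 (adjusted p = 1.42e-06) in shCTRL cells, and was 2.09-fold higher in untreated shINCA1 cells (1.06 ± 0.03, adjusted p = 1.08e-10). USP15, a deubiquitinase of SMADs, rose in shCTRL cells (0.40 ± 0.06, adjusted p = 5.10e-04). THBS1 and ITGB8, which release latent TGF-β, fell with IFNγ in both lines. THBS1, the thrombospondin 1 gene, was at 1413, 1412 and 1401 CPM in IFNγ-treated and 1824, 1889 and 1788 CPM in untreated shINCA1 libraries. It was at 697, 697 and 699 CPM in IFNγ-treated and 1201, 1175 and 1165 CPM in untreated shCTRL libraries. It fell by 0.38 ± 0.02 (adjusted p = 6.70e-08) in shINCA1 and by 0.76 ± 0.02 (adjusted p = 6.59e-11) in shCTRL cells, and was higher in shINCA1 cells by 0.64 ± 0.02 (adjusted p = 1.67e-10) untreated and 1.01 ± 0.02 (adjusted p = 6.21e-12) with IFNγ. ITGB8, the β8 integrin gene, fell by 0.30 ± 0.05 (adjusted p = 0.00176) in shINCA1 and by 0.76 ± 0.05 (adjusted p = 4.13e-07) in shCTRL cells. Between the lines, ITGB8 was higher in shINCA1 cells in both conditions. ITGAV, the integrin partner of ITGB8, was lower in shINCA1 cells in both conditions, 2.36-fold with IFNγ (-1.24 ± 0.06, adjusted p = 9.01e-09). FBN1, which tethers LTBPs in the matrix, was lower in shINCA1 cells by 1.57 ± 0.06 (adjusted p = 6.23e-10) untreated and by 1.80 ± 0.06 (adjusted p = 2.30e-10) with IFNγ. PMEPA1 and LDLRAD4, related membrane proteins that sequester SMAD2 and SMAD3, fell with IFNγ, PMEPA1 by 0.28 ± 0.06 (adjusted p = 0.00710) in shINCA1 and 0.50 ± 0.06 (adjusted p = 4.06e-05) in shCTRL cells and LDLRAD4 by 0.59 ± 0.12 (adjusted p = 0.00743) in shINCA1 and 0.63 ± 0.11 (adjusted p = 0.00160) in shCTRL cells. NEDD4L, a ligase acting on activated SMAD2 and SMAD3, was higher in untreated shINCA1 cells (1.02 ± 0.04, adjusted p = 2.34e-09), and MAP3K7, the kinase TAK1, was lower (-0.71 ± 0.03, adjusted p = 6.47e-09).

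Known response genes of TGF-β or BMP, 35 by a list and 33 of them tested, fell more often than they rose in shINCA1 cells. Untreated, 10 rose and 17 fell, and with IFNγ 10 rose and 19 fell, 81.8% and 87.9% called against 56.9% and 58.9% of all genes. Over all genes 27.4% were raised and 29.5% lowered untreated, and 28.7% and 30.2% with IFNγ. The median difference was -0.59 untreated and -0.51 with IFNγ, against -0.01 and -0.00 over all genes. This list, like the others, was chosen with earlier results of these data known. Its shares and medians therefore describe the listed genes and are not an independent test. Many of the listed genes also answer to other signals, and CTGF and CYR61 are known targets of YAP. FN1, the fibronectin gene, was at 65.8, 65.3 and 65.1 CPM in IFNγ-treated and 60.9, 66.6 and 60.2 CPM in untreated shINCA1 libraries. It was at 329.7, 362 and 352 CPM in IFNγ-treated and 304, 293 and 289 CPM in untreated shCTRL libraries. The lines were widely apart, with FN1 4.73-fold lower in untreated shINCA1 cells (-2.24 ± 0.05, adjusted p = 9.46e-12). TGFBI, named for its induction by TGF-β, was 3.01-fold lower (-1.59 ± 0.03, adjusted p = 3.88e-12), ADAM12 changed by -1.75 ± 0.03 (adjusted p = 2.67e-12), the tropomyosin gene TPM1 by -1.19 ± 0.04 (adjusted p = 2.75e-10) and the transcription factor gene SNAI2 by -3.52 ± 0.12 (adjusted p = 4.60e-10), all untreated. COL1A2, a collagen I chain gene, was at 0 in all 6 shINCA1 libraries. It was at 47.1, 44.96 and 41.8 CPM in IFNγ-treated and 42.4, 41.2 and 40.9 CPM in untreated shCTRL libraries. Against 3 counts per library, COL1A2 was at least 853-fold lower in untreated and at least 795-fold lower in treated shINCA1 cells. CTGF, CYR61 and CDKN1A were among the genes higher in shINCA1 cells, by 0.69 ± 0.04 (adjusted p = 1.37e-08), 0.33 ± 0.03 (adjusted p = 5.08e-06) and 0.80 ± 0.04 (adjusted p = 1.24e-08) untreated.

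**Figure D4:**
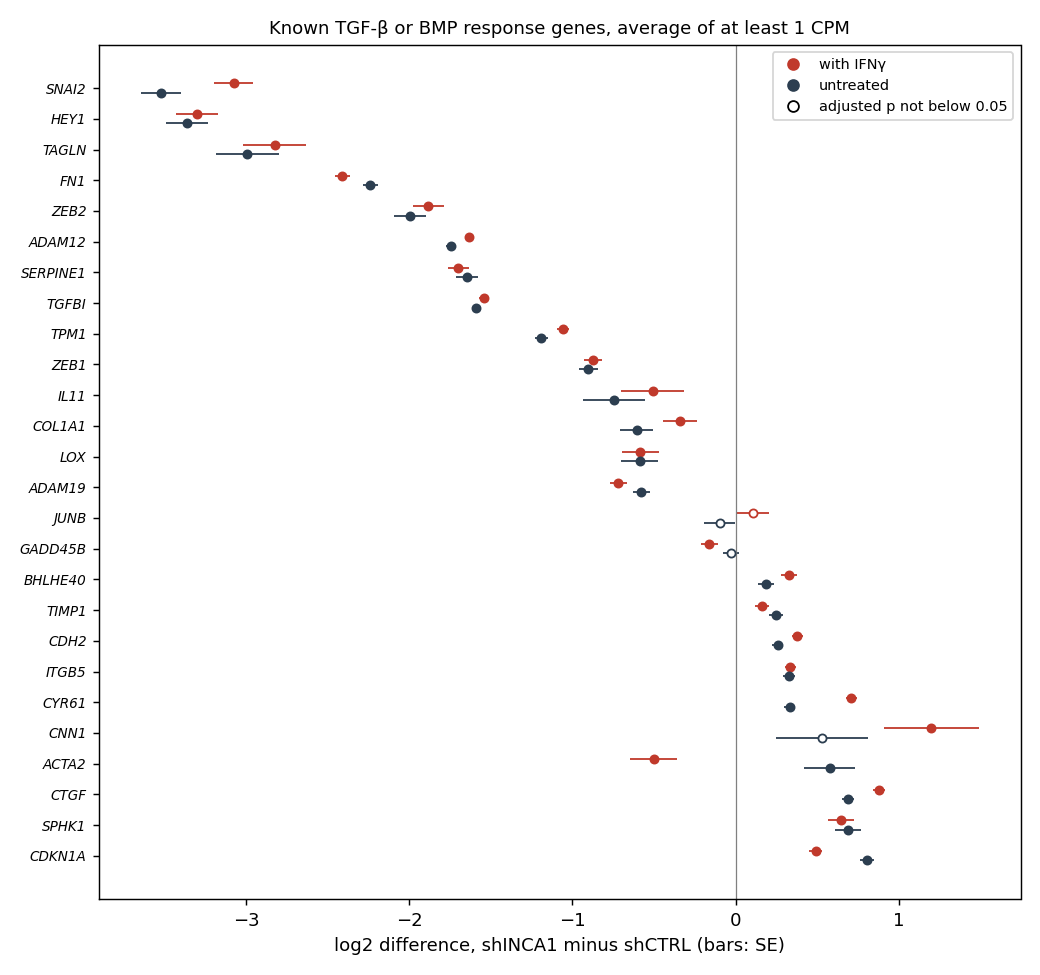
Log2 difference between shINCA1 and shCTRL cells for the 26 response genes with an average of at least 1 CPM, with IFNγ (red) and untreated (dark blue). Bars are standard errors and open points missed an adjusted p of 0.05. SNAI2, FN1 and TGFBI lie left of zero at -3.52, -2.24 and -1.59 untreated, while ACTA2 lies at -0.50 with IFNγ and 0.58 untreated.

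IFNγ moved the response genes in both directions. It raised 6 and lowered 3 in shINCA1 cells (27.3% against 9.08% of all genes) and raised 6 and lowered 5 in shCTRL cells (33.3% against 17.2%). Medians were 0.05 in shINCA1 cells, 0.06 with COL1A2 at its bound, and 0.03 in shCTRL cells. ZEB1, a transcription factor of mesenchymal cells, rose by 0.71 ± 0.06 (adjusted p = 4.09e-06) in shINCA1 and by 0.68 ± 0.06 (adjusted p = 2.91e-06) in shCTRL cells. GADD45B rose by 0.38 ± 0.05 (adjusted p = 3.52e-04) in shINCA1 and by 0.51 ± 0.05 (adjusted p = 1.54e-05) in shCTRL cells. CTGF fell by 0.44 ± 0.04 (adjusted p = 5.35e-06) in shINCA1 and by 0.63 ± 0.04 (adjusted p = 1.19e-07) in shCTRL cells. TPM1 fell by 0.17 ± 0.04 (adjusted p = 0.0163) in shINCA1 and by 0.30 ± 0.04 (adjusted p = 1.42e-04) in shCTRL cells. ZEB2 rose by 0.56 ± 0.10 (adjusted p = 0.00290) in shINCA1 and by 0.44 ± 0.09 (adjusted p = 0.00507) in shCTRL cells. FN1 rose by 0.24 ± 0.04 (adjusted p = 0.00239) in shCTRL cells, and its change in shINCA1 cells was 0.06 ± 0.04 (adjusted p = 0.503). ACTA2, the smooth muscle actin gene, was at 2.49, 2.57 and 2.44 CPM in IFNγ-treated and 1.65, 1.46 and 1.74 CPM in untreated shINCA1 libraries. It was at 3.67, 3.20 and 3.77 CPM in IFNγ-treated and 0.944, 0.976 and 1.33 CPM in untreated shCTRL libraries. It rose in both lines, by 0.63 ± 0.15 (adjusted p = 0.0195) in shINCA1 and by 1.71 ± 0.15 (adjusted p = 6.41e-06) in shCTRL cells, and its line difference had opposite signs untreated (0.58 ± 0.16, adjusted p = 0.00725) and with IFNγ (-0.50 ± 0.14, adjusted p = 0.0102). CDKN1A was called in opposite directions, at -0.15 ± 0.04 (adjusted p = 0.0464) in shINCA1 and 0.17 ± 0.04 (adjusted p = 0.0160) in shCTRL cells.

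Markers and genome position were set beside the line difference. Epithelial markers were higher in shINCA1 cells, with 2 of 4 tested and both raised: their summed level was 267 to 268 CPM in treated and 239 to 262 CPM in untreated shINCA1 libraries, against 89.8 to 94.6 CPM in treated and 93.1 to 96.3 CPM in untreated shCTRL libraries. Nearly all of that was KRT18, while EPCAM and CDH1 were at most 0.199 CPM in any library. Neuronal markers summed to 7.22 to 9.54 CPM in shINCA1 and 4.22 to 5.67 CPM in shCTRL libraries (SYT1 higher, SNAP25 lower, RBFOX3 at 0 in all but 1 library). Endothelial markers summed to 0.815 to 2.69 CPM in shINCA1 and 0.580 to 1.08 CPM in shCTRL libraries (VWF and CDH5 raised untreated, PECAM1 at 0 in all but 1 library). Immune markers summed to 9.83 to 11.3 CPM in shINCA1 and 12.3 to 14.5 CPM in shCTRL libraries, nearly all CD68, with CD3E at 0 throughout. Glial markers summed to 2990 to 3047 CPM in shINCA1 and 3454 to 3681 CPM in shCTRL libraries. That sum covers opposite changes: in each condition 3 of the 8 were raised and 5 lowered in shINCA1 cells, 1 and 3 at least 2-fold. Of all genes, 56.9% were called untreated and 58.9% with IFNγ. The part of these markers in the pathway genes' differences was not tested, and in bulk RNA fewer cells of a type and less RNA per cell cannot be told apart.

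Each member's line difference was also read against the median of its 20 nearest tested genes on the chromosome, as a comparison added after the data were seen. These medians ran from -0.69 to 0.70 untreated and from -0.72 to 0.78 with IFNγ. ID4, on chromosome 6, had a difference of -0.76 untreated among neighbours at -0.69, which left -0.07, and with IFNγ -0.93 among neighbours at -0.72, which left -0.21. ID1, on chromosome 20, likewise lay close to its neighbours (-0.29 against -0.23 untreated). BMP4, on chromosome 14, had neighbours at 0.48 untreated, which left 2.86 of its 3.34, and TGFB3, on the same chromosome, had neighbours at 0.70, which left -1.75. NOG, SOSTDC1 and BMP7 had untreated neighbours between 0.25 and 0.31. The sign of every called member was kept after this subtraction, for 30 of 30 untreated and 30 of 30 with IFNγ, but 61 of the 92 values moved by more than their standard error. Some called members were left near zero, such as TGIF1 at -0.00 and ID1 at -0.07 untreated, and SMURF2 at 0.07 and SMAD1 at -0.10 with IFNγ.

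**Figure D5:**
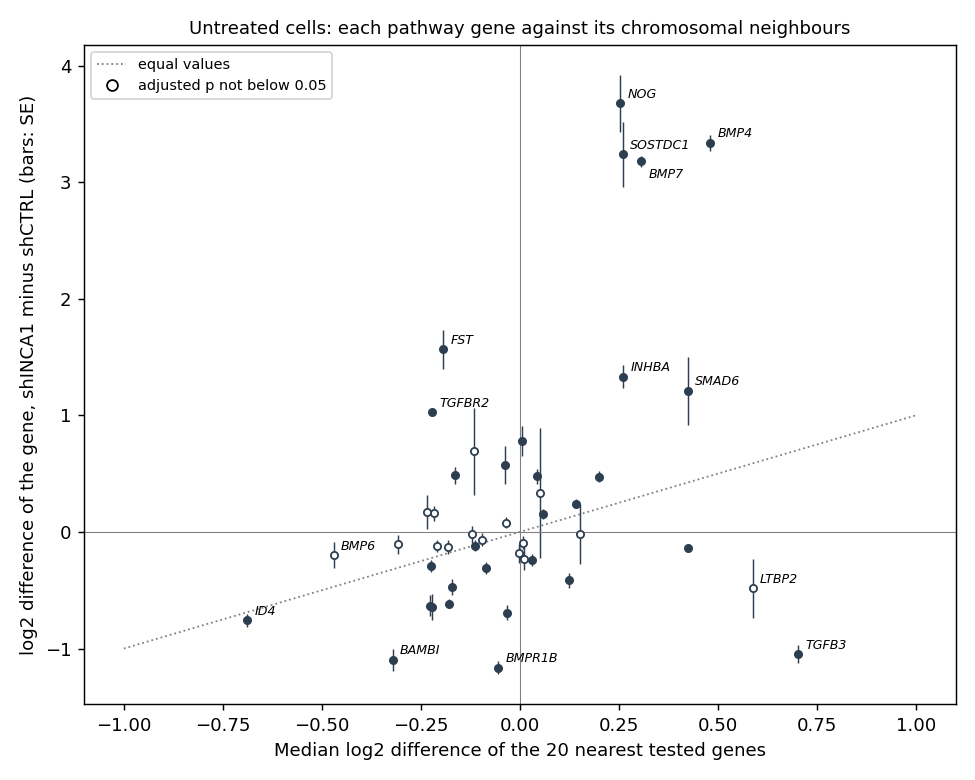
Log2 difference between untreated shINCA1 and shCTRL cells for the 46 tested pathway genes (vertical axis, bars are standard errors) against the median difference of their 20 nearest tested genes (horizontal axis). Open points missed an adjusted p of 0.05 and the dotted line marks equal values. ID4 lies near that line at -0.69 and -0.76, and BMP4, BMP7, NOG and SOSTDC1 lie far above it.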

How the data were processed

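RNA from 12 samples was made into stranded mRNA libraries, per the labels. Per the submitters' processing notes, the tools were FastQC, Trimmomatic, HISAT2 and StringTie with build hg19; the sources used here do not give the counting step, its annotation or its strand setting. The deposited table holds estimated counts as whole numbers, not normalized by the authors, whose low values pile up at multiples of 3 (5790 values of 3 against 2186 of 2). Of 27685 genes, 7434 were at 0 throughout, and 15769 passed edgeR's expression filter, with 99.9864% of the counts. edgeR 4.0.16 in R 4.3.3 fitted the 4 groups together with TMM factors and its quasi-likelihood test, Benjamini-Hochberg adjusted. The standard error is the log2 change over the square root of F. The code was tested on simulated data with 200 changed genes. Levels (CPM) are counts over the TMM-scaled library size, as means and SD over 3 samples where given. A gene at 0 in a group was bounded at 3 counts per library, which covers counting error only.

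The members and gene lists were chosen with earlier results of these data known. Per-sample values are given for members among the 4 most raised or lowered called members of any comparison with an average of at least 1 CPM, for ID1 to ID4, SMAD6, SMAD7, SKIL, TGFB1, TGFB2, TGFBR1 and TGFBR2, and up to 6 genes per further list and comparison by p were open to naming. Alternatives were DESeq2 1.42.0 (size factors and its own test), upper-quartile factors, limma 3.58.1 (voom), other filters, a threshold of 0.01, a replicate block, fits on 2 groups and each library left out. A few genes of the check and marker lists and 1 overlapping gene are not reported here.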

Additional observations from a re-analysis of the deposited data

Results flagged for a closer look

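These genes had a response to IFNγ that differed between the lines, by the test of the difference itself (response in shINCA1 minus that in shCTRL cells, edgeR's quasi-likelihood test, adjusted over all tested genes). Among the listed pathway genes they were LTBP1, with a log2 difference of -0.47 ± 0.07 (adjusted p = 0.00714), and SMAD3, with 0.21 ± 0.05 (adjusted p = 0.0408). Among other pathway genes they were CRIM1, with -0.24 ± 0.04 (adjusted p = 0.0178), ITGB8, with 0.46 ± 0.07 (adjusted p = 0.00561), and THBS1, with 0.38 ± 0.03 (adjusted p = 2.87e-05). Among response genes they were CYR61, with 0.38 ± 0.05 (adjusted p = 0.00182), ACTA2, with -1.08 ± 0.21 (adjusted p = 0.0253), and CDKN1A, with -0.31 ± 0.06 (adjusted p = 0.0196). The SMAD3 call was lost without any 1 of 11 of the 12 libraries, as given above. Single calls of the other pathway genes and response genes were not followed through the alternative fits. Groups of 3 were not searched for single outlying samples.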

How the results depend on the processing

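No called member reversed its direction under any alternative tried. Leaving out each library in turn gave 2 to 3 raised and 3 to 7 lowered members for IFNγ in shINCA1 cells, and 4 to 7 raised and 11 to 12 lowered in shCTRL cells. It gave 14 to 17 raised and 13 to 17 lowered for the line difference with IFNγ, 14 to 16 raised and 14 to 16 lowered untreated, and 0 to 2 raised and 1 to 1 lowered for the difference of the responses. At an adjusted p of 0.01, 3 members fell with IFNγ in shINCA1 cells and 0 were raised in the difference of the responses. That difference had 0 raised members with DESeq2 size factors and without a filter, and 2 with upper-quartile factors, with a filter of 5 CPM and with DESeq2's own test. It had 2 lowered members with DESeq2 size factors and with the filter of 5 CPM, and 3 with DESeq2's own test. The cause of these changes was not tested. Over all genes, DESeq2's test gave 192 raised and 317 lowered for that difference, against 97 and 173 by edgeR, and the threshold of 0.01 gave 42 and 71. Upper-quartile factors moved the split of all genes raised and lowered with IFNγ to 815 and 733 in shINCA1 cells, against 967 and 465, and to 1201 and 1970 in shCTRL cells, against 1532 and 1184. Replicate numbers gave little sign of pairing: the 18 same-number correlations of deviations ran from -0.049 to 0.103, with 1 above 0.1. Values this small do not exclude a weak pairing. With the replicate block, 0 members were raised in the difference of the responses. Genes near 1 CPM or below, such as BMP2, INHBB and SOSTDC1 in shCTRL cells, are limited by depth.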
